A study of Medicago truncatula with 24 samples.

Results

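The nuclear genome of *Medicago truncatula* (A17) is assembled into chromosomes 1 to 8 and a set of contigs that no chromosome holds. These unplaced contigs carry sequence names that start with MtrunA17Chr0c and are called here Chr0c01, Chr0c02 and so on. Peaks were chosen by that name alone, so no measured value entered the choice, and peaks on plastid and mitochondrial sequences were left out. The 12 peak lists held 708 such peaks among 38053 in all, or 1.86%, on 18 contigs. A further 37061 peaks lay on chromosomes 1 to 8 and 284 on organelle sequences.

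Both marks sit on the tail of histone H3. In plants H3K27me3, trimethylation of a lysine, is written by Polycomb repressive complexes, often over long stretches, and is known for keeping developmental genes silent, for example at transitions of the seed. H3ac, acetylation of several lysines of the same tail, is known from the start of transcribed genes, and the 2 marks usually occupy different places. Unplaced contigs are stretches that assembly could not anchor. In plant genomes such stretches are often rich in repeated sequence, which makes them hard both to place and to map.

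Embryos dissected from seeds of line A17 were used for chromatin immunoprecipitation and sequencing (ChIP-seq), in which an antibody fraction (IP) is compared with chromatin taken before the antibody step (INPUT). All plants grew at 20°C by day and 18°C by night until flowering, when a part of them was moved to 26°C by day and 24°C by night as heat stress. Stages S1, S2, S3 and S4, which run from before desiccation tolerance to the mature seed, were taken from control plants at 17, 26, 36 and 44 days after pollination (DAP) and from heat-stressed plants at 14, 17, 22 and 28 DAP. All 4 stages were profiled for H3K27me3 but only S1 and S2 for H3ac, at both temperatures, with 1 IP and 1 INPUT library for each, made from pooled embryos of seeds of more than 1 harvest year. The series record speaks of 2 replicates for H3ac, but 1 library per condition was used here. No condition had a replicate, so differences between conditions are ratios with no replicate error. The study gives the number of reads of each library, which differs between libraries and between IP and INPUT. It is not in the lists and was not used here, so the part of depth in the counts was not tested. The lists hold no measure of expression, so the tissue was not checked against marker genes.

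On the contigs, H3K27me3 peaks were fewer at later stages at 20°C and more numerous at later stages at 26°C. At 20°C the lists of S1, S2, S3 and S4 held 54, 53, 45 and 36 contig peaks. At 26°C they held 41, 59, 96 and 97. The counts of the 2 temperatures were thus close at S1 and S2 and far apart at S3 and S4. List sizes differed as well. Of all nuclear peaks of a list, contig peaks made up 1.15, 2.87, 3.00 and 4.01% from S1 to S4 at 20°C. At 26°C they made up 0.725, 1.11, 1.47 and 2.16%. H3ac gave 92 contig peaks (S1) and 61 (S2) at 20°C, against 41 (S1) and 33 (S2) at 26°C. Both H3ac lists from heat-stressed plants were lower in contig peaks than both from control plants. They were also smaller lists, with 827 (S1) and 563 (S2) nuclear peaks against 4468 (S1) and 989 (S2) at 20°C. The contigs' share of H3ac nuclear peaks was 2.06% (S1) and 6.17% (S2) at 20°C, and 4.96% (S1) and 5.86% (S2) at 26°C.

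The length that these peaks covered varied less than their number. H3K27me3 peaks covered 275.8, 373.9, 374.0 and 413.9 kb of contig sequence from S1 to S4 at 20°C. At 26°C they covered 318.0, 349.3, 391.5 and 481.5 kb. At both temperatures S1 was thus the lowest and S4 the highest list. H3ac covered 313.7 kb (S1) and 347.4 kb (S2) at 20°C, and 303.4 kb (S1) and 248.2 kb (S2) at 26°C.

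**Figure D1:**
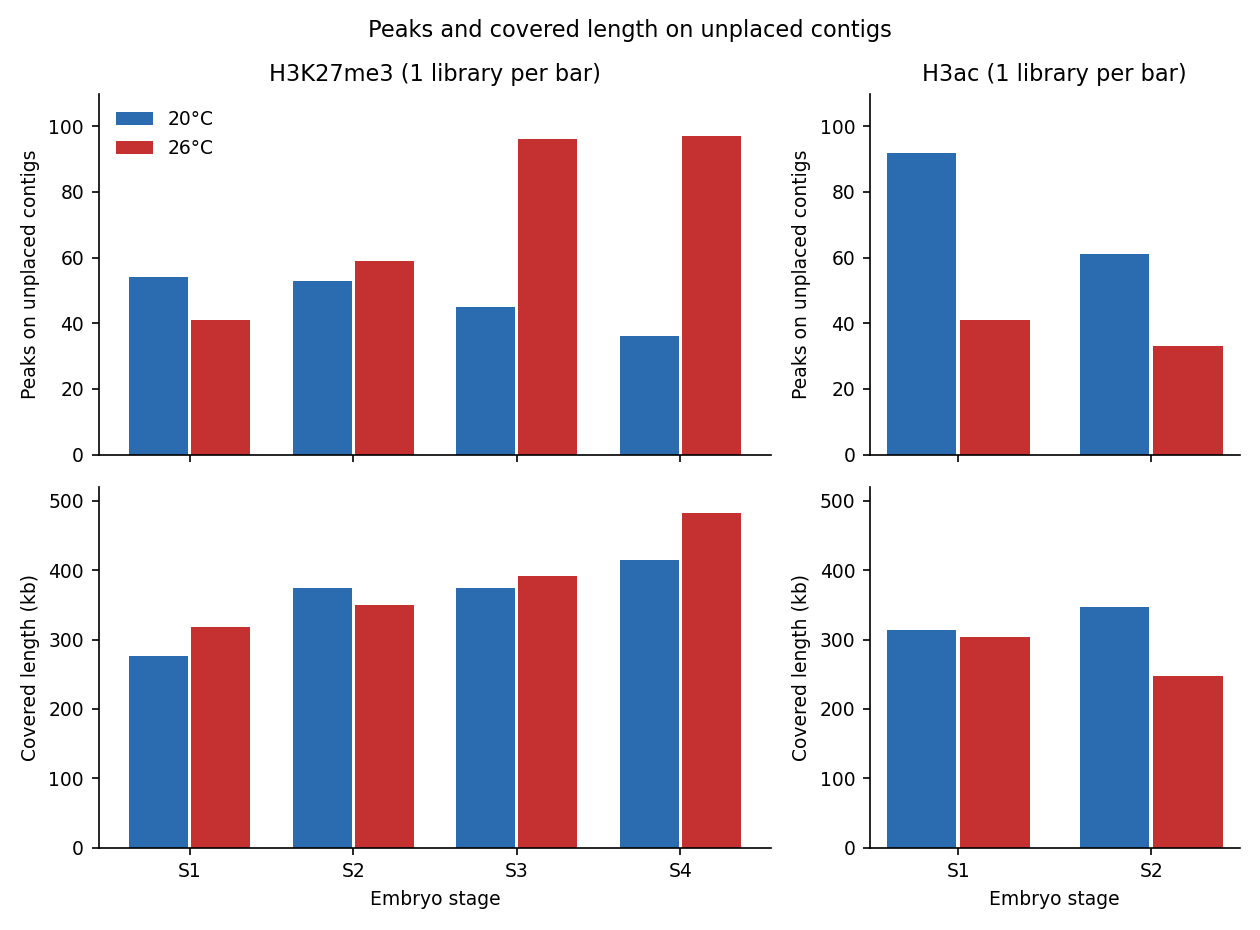
Number of peaks on unplaced contigs (upper panels) and kb of contig sequence under them (lower panels) by stage, for H3K27me3 (left) and H3ac (right), at 20°C (blue) and 26°C (red). Each bar is 1 library. H3K27me3 counts at S4 were 36 at 20°C and 97 at 26°C, whereas the covered lengths were 413.9 and 481.5 kb.

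A few contigs held most of this signal. Chr0c01 carried 247 of the 708 peaks (34.9%) and Chr0c02 a further 153 (21.6%). Chr0c01, Chr0c02, Chr0c06, Chr0c07, Chr0c24 and Chr0c25 had a peak in all 12 lists, 6 contigs in total. A peak in at least 6 lists was found on 12 contigs, which held 684 of the peaks, and the other 6 contigs (Chr0c05, Chr0c09, Chr0c13, Chr0c15, Chr0c17 and Chr0c26) held 24. By length the order was different, because Chr0c07 added few but very long peaks. Summed over the 12 lists, peaks covered 1189 kb on Chr0c07 and 1136 kb on Chr0c01, followed by 370.2 kb on Chr0c06, 328.0 kb on Chr0c02, 304.0 kb on Chr0c10 and 277.5 kb on Chr0c25. In a single list Chr0c07 made up 21.5 to 38.6% of the covered contig length and Chr0c01 13.8 to 34.0%.

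The lengths of the contigs are not in the lists, so the end of the last peak was taken as a lower bound of each. By that bound the 18 contigs spanned 3.06 Mb, of which a list covered 8.11 to 15.7%, an upper bound. The chromosomes spanned 425.9 Mb, of which a list covered 0.552 to 1.90%. All 12 lists had the higher covered share on the contigs, and contigs without any peak, which would lower it, could not be counted.

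**Figure D2:**
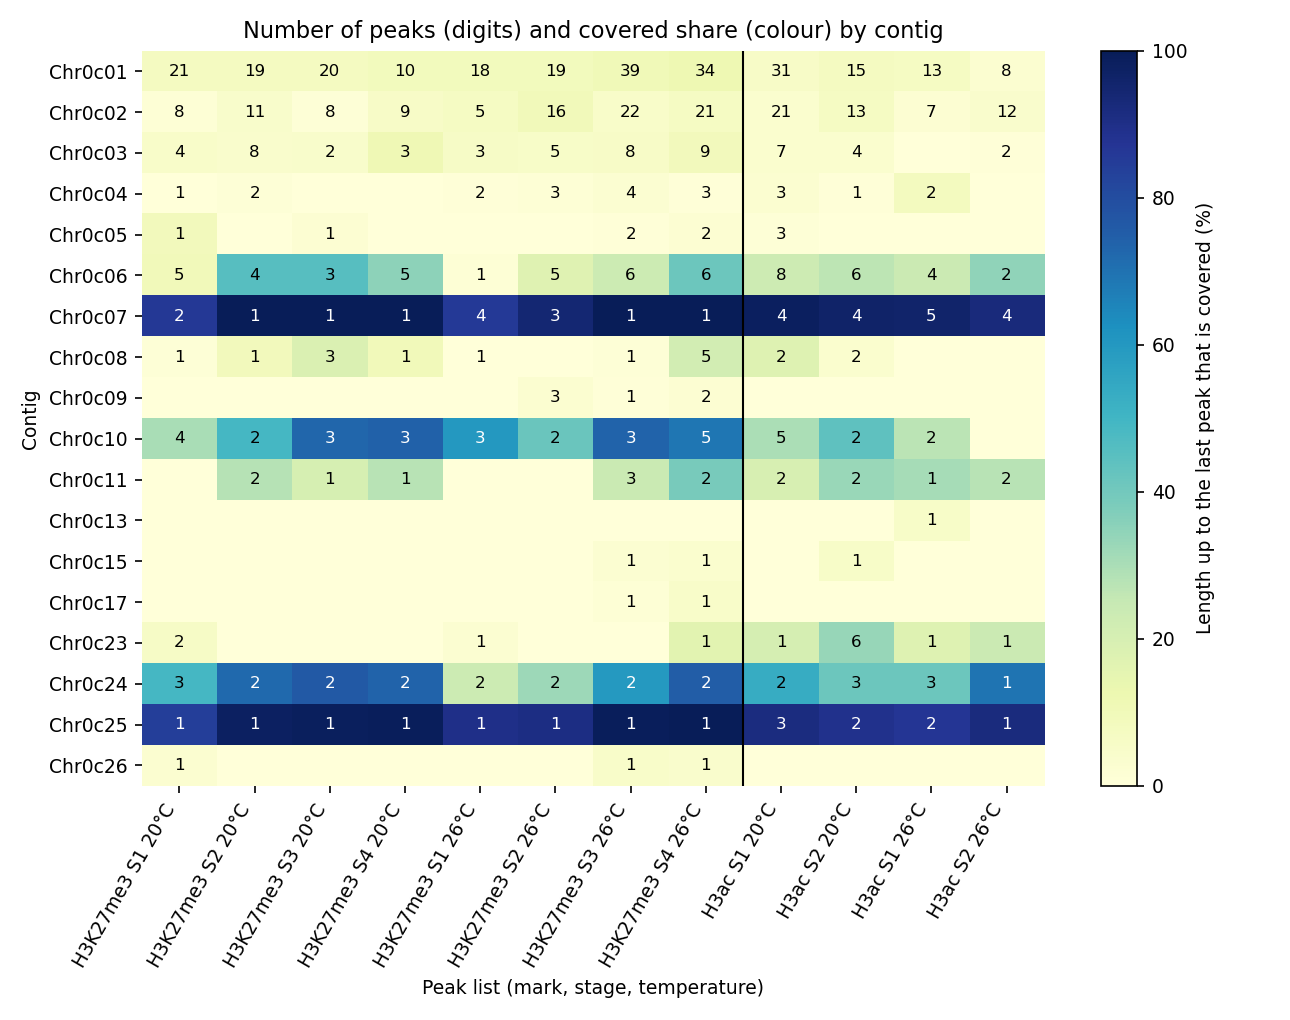
Peaks by contig (rows) and list (columns, H3K27me3 left of the line and H3ac right of it). Digits are the number of peaks and the colour is the percent of the contig, up to its last peak, that they cover. Chr0c07 and Chr0c25 are dark in all 12 lists, with 1 to 5 and 1 to 3 peaks each, whereas Chr0c01 has 8 to 39 peaks and is pale.

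Among the named contigs, coverage of the length up to the last peak ran from nearly whole to sparse. Taken as shares of a whole contig, these values are upper bounds. On Chr0c07, where the last peak ended at position 103548, H3K27me3 covered 85.7 to 99.9% of that length and H3ac 92.5 to 98.2%. On Chr0c25 the corresponding values were 84.2 to 99.7% and 86.9 to 92.1%. Chr0c24 was covered to 23.1 to 76.3% by H3K27me3 and to 41.1 to 69.2% by H3ac. Chr0c10 had H3K27me3 over 30.5 to 74.1%, and H3ac over at most 44.0%, with no H3ac peak at S2 at 26°C. Chr0c06 ranged from 1.53% in the H3K27me3 list of S1 at 26°C to 45.5% in the highest H3K27me3 list, with H3ac between 22.9 and 34.6%.

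The long contigs Chr0c01, Chr0c02, Chr0c03 and Chr0c04 were covered sparsely. On Chr0c01, 90.7 to 141.9 kb were under H3K27me3 and 34.4 to 90.1 kb under H3ac, at most 11.8% and 7.48% of the 1205152 bp up to its last peak. Chr0c02 had 5.33 to 55.6 kb under H3K27me3 and 12.7 to 39.1 kb under H3ac. On Chr0c03 the range was 11.8 to 31.1 kb for H3K27me3 and 0 to 8.83 kb for H3ac, which was missing at S1 at 26°C. Chr0c04 had at most 6.74 kb of H3K27me3 in a list, and its largest H3ac cover was 19.9 kb at S1 at 26°C.

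The contigs Chr0c11 and Chr0c23 had H3ac under every condition tested and H3K27me3 in a part of its lists. On Chr0c11 H3ac lay over 6.81 and 11.5 kb at 20°C and 10.7 and 9.62 kb at 26°C, S1 before S2. H3K27me3 appeared on it only from S2 on at 20°C, over 9.79, 6.97 and 9.66 kb, and at S3 and S4 at 26°C, over 8.35 and 13.5 kb. At S2 at 20°C both marks were thus present on Chr0c11. On Chr0c23 H3ac lay over 3.69 to 7.05 kb, and H3K27me3 was found in 3 of 8, over 1.24 kb at S1 at 20°C, 0.499 kb at S1 at 26°C and 3.45 kb at S4 at 26°C. Chr0c08 had H3K27me3 in 7 lists, with up to 20.5 kb at S4 at 26°C, and H3ac only at 20°C, over 16.7 kb at S1 and 3.17 kb at S2.

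Peaks of all lists that overlapped or touched were merged into regions, which gave 260 regions on the contigs. A peak in all 12 lists was found in 5 of these (1.92%), against 0.134% of the merged regions of all nuclear sequences. All 8 H3K27me3 lists were present in 10 regions (3.85%, background 0.465%) and all 4 H3ac lists in 9 (3.46%, background 0.406%). Both marks occurred in 50 regions (19.2%, background 6.22%), H3K27me3 alone in 168 (64.6%, background 79.4%) and H3ac alone in 42 (16.2%, background 14.4%). Most regions were nevertheless seen once, since 170 (65.4%, background 81.6%) had a peak in 1 list only. Those 170 had a median length of 443 bp, whereas the 5 regions in all 12 lists had a median of 24740 bp and a total of 256930 bp. Merging makes long regions count in more lists, so length and number of lists are not separate measures.

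The regions in at least 6 lists numbered 25 (9.62%, background 1.93%). Chr0c01 held 7 of them, Chr0c02 held 6, Chr0c06 held 3, Chr0c10 and Chr0c24 held 2 each, and Chr0c03, Chr0c07, Chr0c08, Chr0c11 and Chr0c25 held 1 each. The 5 regions in all 12 lists lay on Chr0c01, Chr0c06, Chr0c07, Chr0c24 and Chr0c25. They made up 52.1 to 73.5% of the contig length covered in each list, the lowest in H3K27me3 at S4 at 26°C and the highest in H3K27me3 at S1 at 20°C.

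The longest region ran on Chr0c07 from position 147 to 103548, the end of the last peak of this contig. How far the contig runs beyond it is not in the lists. The fold enrichment of a peak is its ratio of IP to INPUT, which for H3K27me3 is averaged over the peak and for H3ac stands for its summit, so values are compared within a mark only. In H3K27me3 the strongest peak of this region had a fold enrichment of 9.93, 23.4, 24.1 and 26.5 from S1 to S4 at 20°C. At 26°C it had 11.8, 13.9, 31.3 and 32.3. S1 was the lowest list at each temperature, and the step to above 20 lay between S1 and S2 at 20°C and between S2 and S3 at 26°C.

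The shape of the Chr0c07 signal differed between stages in the same way. At S2, S3 and S4 at 20°C and at S3 and S4 at 26°C, H3K27me3 formed 1 unbroken peak of 103248 to 103400 bp. At S1 at 20°C it was split once, by a gap from position 12525 to 17546. At S1 at 26°C a gap from 12404 to 17882 stood beside 2 others, and at S2 at 26°C a gap from 14270 to 17537 stood beside 1 other. H3ac was split in all 4 lists into 4 or 5 peaks. A gap that ended between positions 17383 and 17415 and another that began between 69516 and 69575 and ended between 70020 and 70056 were found in each of the 4 H3ac lists. The gaps near 17 kb thus recurred in both marks, and that near 70 kb in H3ac. H3ac had a strongest fold enrichment of 6.15 (S1) and 18.4 (S2) at 20°C, and of 4.08 (S1) and 5.99 (S2) at 26°C. The value of 18.4 belonged to the first peak of the contig, while the other 3 peaks of that list reached at most 2.65.

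Chr0c25 showed the second region of this kind, from position 79 to 24818. H3K27me3 formed 1 peak over it in each of the 8 lists. Its fold enrichment was 8.07, 11.7, 18.4 and 17.9 from S1 to S4 at 20°C and 4.88, 9.04, 18.2 and 27.8 at 26°C. S1 was again the lowest at both temperatures, and S4 at 26°C stood above all others. H3ac covered 21.6 to 22.9 kb of it, at a fold enrichment of 2.64 and 2.01 at S1 and S2 at 20°C and 1.73 and 4.50 at 26°C.

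On Chr0c01 the shared region ran from position 32379 to 120822, early in this long contig. H3K27me3 covered 73.4, 68.7, 73.7 and 82.5 kb of it from S1 to S4 at 20°C and 84.9, 81.1, 82.2 and 84.2 kb at 26°C. Its strongest fold enrichment was 12.3, 10.4, 8.54 and 9.26 at 20°C, against 7.49, 11.9, 15.1 and 15.2 at 26°C. S1 was thus the highest list at 20°C and the lowest at 26°C, whereas on Chr0c07 and Chr0c25 it was the lowest at both. H3ac covered 50.4 kb (S1) and 55.6 kb (S2) at 20°C and 56.6 kb (S1) and 20.2 kb (S2) at 26°C. Its fold enrichment there was 18.0, 16.5 and 17.3 in the first 3 of these lists and 4.08 in the last. H3ac at S2 at 26°C therefore stood apart in both length and height, and it was also the list with the fewest contig peaks.

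**Figure D3:**
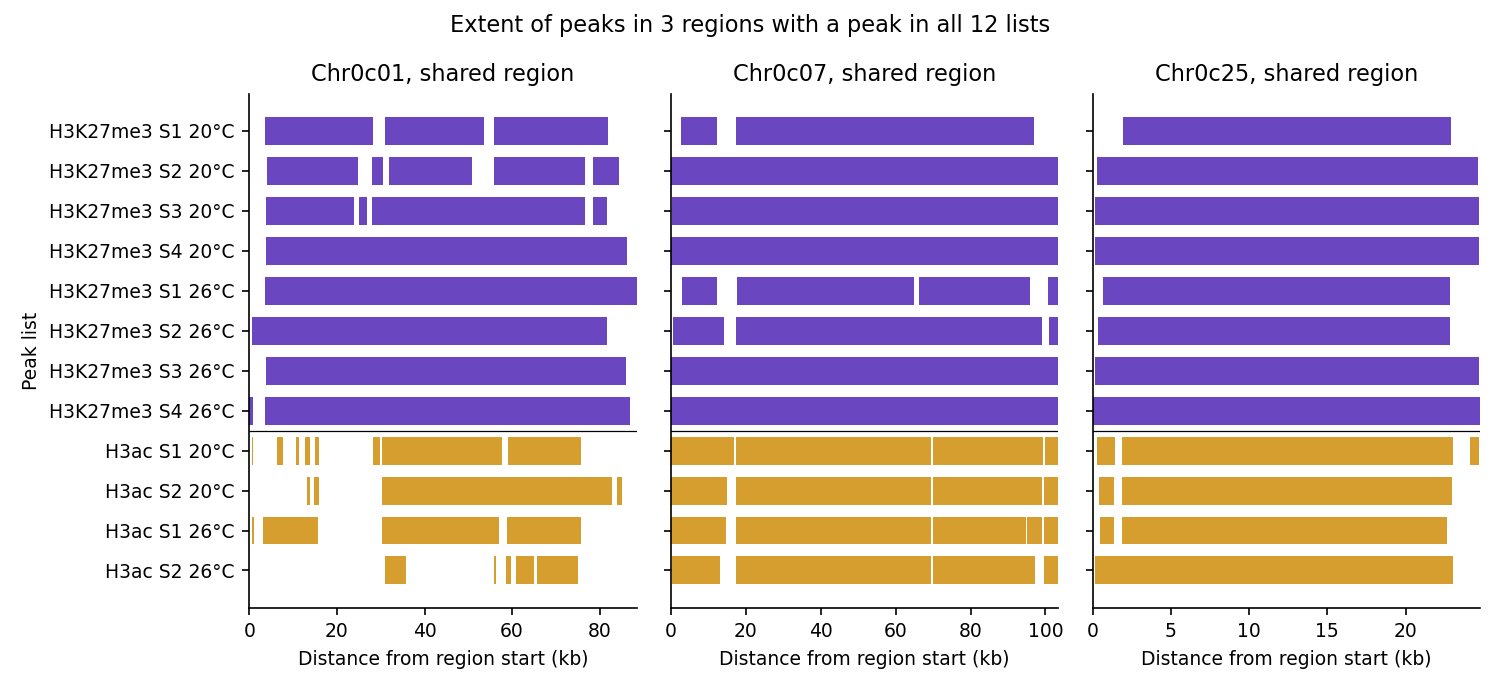
Peaks of each list (rows, H3K27me3 purple and H3ac yellow) in the shared regions of Chr0c01, Chr0c07 and Chr0c25, drawn to scale as distance from the start of the region in kb. On Chr0c07 H3K27me3 is 1 unbroken peak in 5 of 8 lists, and H3ac has a gap near 70 kb in all 4. On Chr0c01 H3ac covers 20.2 kb at S2 at 26°C and 50.4 to 56.6 kb in the other lists.

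The remaining regions in all 12 lists were shorter, and their H3K27me3 fold enrichment reached at most 8.81. On Chr0c06, from position 1367 to 24352, H3K27me3 covered 8.51, 22.1, 22.0 and 22.2 kb from S1 to S4 at 20°C and 1.74, 16.5, 22.0 and 22.2 kb at 26°C. S1 was the lowest list at each temperature. The fold enrichment there was 3.79, 7.79, 7.40 and 8.67 at 20°C, against 3.07, 4.46, 5.05 and 8.81 at 26°C. H3ac had higher values at 20°C, 10.7 (S1) and 12.6 (S2), than at 26°C, 3.01 and 5.94. On Chr0c24, from position 473 to 17830, H3K27me3 had a fold enrichment of 4.77, 5.74, 5.61 and 5.96 at 20°C and 2.12, 3.57, 3.69 and 5.38 at 26°C. All values at 26°C were below that of the same stage at 20°C. H3ac on Chr0c24 was 3.63, 1.47 and 2.52 at S1 and S2 at 20°C and S1 at 26°C, and 6.16 at S2 at 26°C.

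The next most shared region, on Chr0c10 from position 24177 to 53150, had peaks in 11 lists. H3K27me3 was 3.11, 4.61, 5.17 and 6.77 at 20°C, against 3.77, 6.04, 9.25 and 7.13 at 26°C. H3ac was 7.93 (S1) and 9.18 (S2) at 20°C and 4.59 (S1) at 26°C, with no H3ac peak called there in the S2 list at 26°C.

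**Figure D4:**
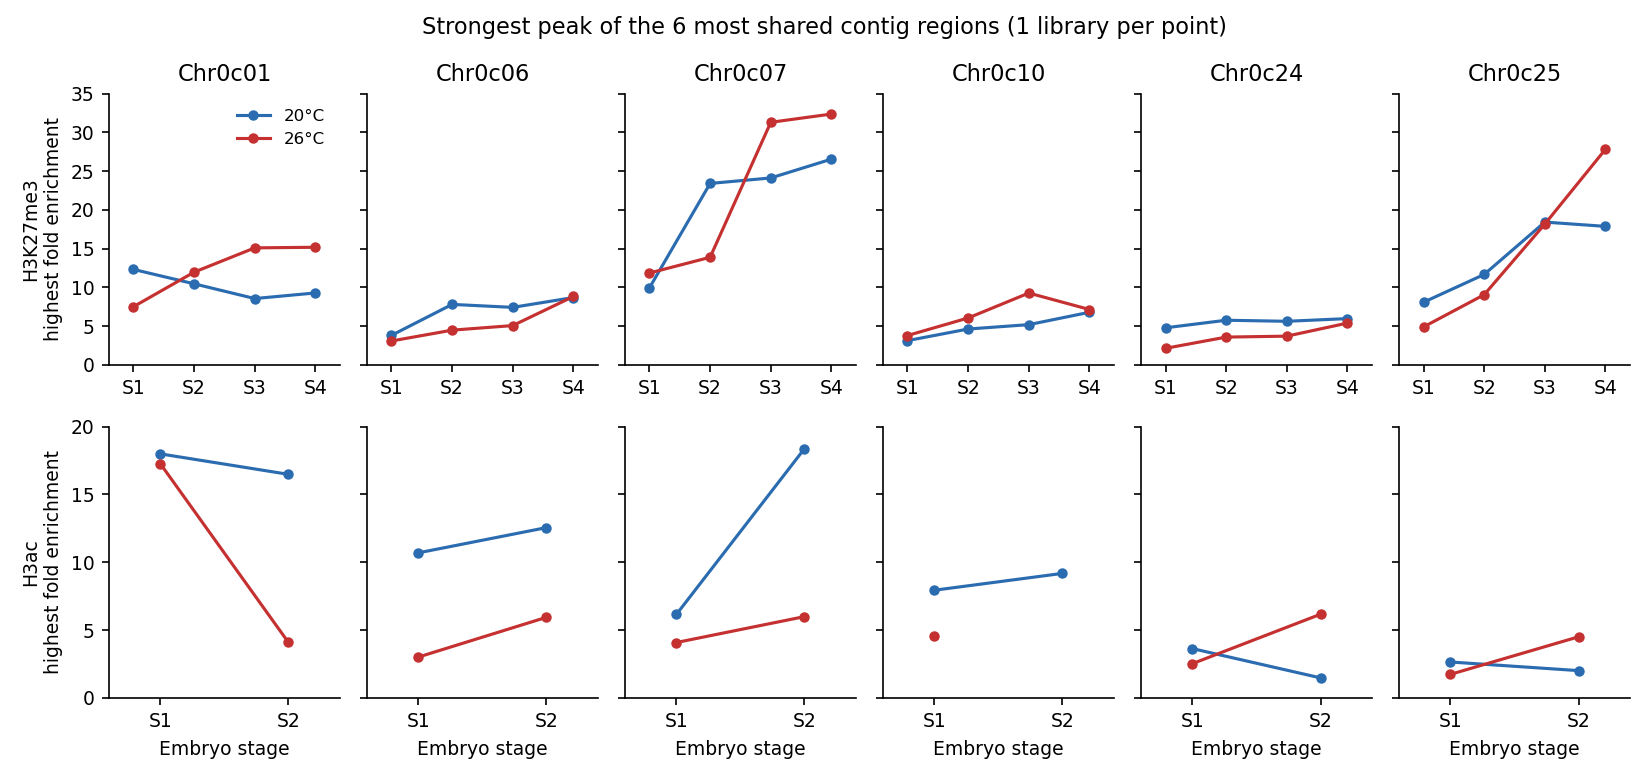
Fold enrichment of the strongest peak (vertical axes, 1 library per point) by stage in the 6 most shared contig regions, for H3K27me3 (upper row) and H3ac (lower row) at 20°C (blue) and 26°C (red). On Chr0c07 H3K27me3 runs from 9.93 to 26.5 at 20°C and from 11.8 to 32.3 at 26°C, whereas Chr0c24 stays between 2.12 and 5.96. The Chr0c10 panel has no H3ac point at S2 at 26°C because no peak was called.

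In the 5 regions in all 12 lists, H3K27me3 was stronger at S4 than at S1 in 4 of 5 at 20°C and in 5 of 5 at 26°C. The exception was Chr0c01 at 20°C, where S4 had 0.753 times the S1 value. The ratio of S4 to S1 was otherwise 1.25 on Chr0c24, 2.21 on Chr0c25, 2.29 on Chr0c06 and 2.67 on Chr0c07 at 20°C. At 26°C it was 2.02 on Chr0c01, 2.54 on Chr0c24, 2.73 on Chr0c07, 2.87 on Chr0c06 and 5.70 on Chr0c25. Of the 29 chromosome regions in all 12 lists, S4 was higher in 21 at 20°C and in 25 at 26°C. Over all nuclear regions with an H3K27me3 peak at both stages, S4 was higher in 22.7% at 20°C and in 21.7% at 26°C. Most regions found in all lists thus had the higher value at S4, on contigs and chromosomes alike. Over all contig regions with an H3K27me3 peak at both stages, S4 was higher in 11 of 17 at 20°C (median log2 ratio 0.20) but in 8 of 18 at 26°C (median −0.17).

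At a given stage and temperature the 2 marks lay over mostly the same bases on Chr0c07 and Chr0c25, and over a varying part of the other regions. On Chr0c07, 84.8 to 96.5% of the region was under both marks in the 4 conditions in which both were measured. On Chr0c25 the range was 84.5 to 90.9%. The longest H3ac peak of Chr0c07 was low at its summit, however. This peak, of 52111 to 52191 bp, had a fold enrichment of 2.82 (S1) and 1.22 (S2) at 20°C. At 26°C that peak had 1.37 (S1) and 2.24 (S2). A summit value does not give the level of H3ac over the rest of a peak. Chr0c01 had both marks over 22.9 to 62.9%, with the lowest value at S2 at 26°C, Chr0c24 over 19.5 to 60.3%, and Chr0c06 over 7.55 to 74.9%, with its lowest value at S1 at 26°C. Lists cannot show whether both marks sit on the same molecules.

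Regions with H3K27me3 and no H3ac were led by 1 on Chr0c03, from position 507 to 22878, present in all 8 H3K27me3 lists. Its fold enrichment was 3.68, 2.83, 3.16 and 3.07 from S1 to S4 at 20°C. At 26°C it was 7.27, 5.43, 4.52 and 3.50, above the value at 20°C at every stage and lower at each later stage. A region on Chr0c24 from 21552 to 24211, next to the shared region of that contig, had H3K27me3 in 7 lists at 2.36 to 3.70. The third was on Chr0c01, from 342148 to 345529, with 4 lists at 2.84 to 3.65.

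Regions with H3ac and no H3K27me3 had peaks in at most 3 of the 4 H3ac lists. That on Chr0c02 from 214565 to 219199 had H3ac in 3 lists, at 2.45 at S1 at 20°C, 3.95 at S1 at 26°C and 3.64 at S2 at 26°C. On Chr0c01, 1138283 to 1139030 had H3ac at S1 (2.80) and S2 (2.99) at 20°C. On Chr0c03, 203257 to 206597 had it at S2 at 20°C (3.52) and at S2 at 26°C (2.46).

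Peaks in 2 or more lists that were all at 26°C were found in 16 regions (6.15%, background 4.94%), and all at 20°C in 3 regions (1.15%, background 0.986%). Both shares lay near the background. Of the 26°C regions, 5 had peaks in 3 lists, the most that any had. The 3 with the highest lowest fold enrichment were on Chr0c02 and had H3K27me3 only, and the others lay on Chr0c03, where 1 of the lists was of H3ac, and on Chr0c09. From 387247 to 410548, the fold enrichment was 7.31 at S1 and 4.87 at S2, over 23.3 and 22.9 kb, and 2.47 at S3, over 0.339 kb. From 92280 to 103693 it was 4.94 at S1, 8.11 at S2 and 2.61 at S3, over 11.4, 11.4 and 0.406 kb. These 2 long stretches were thus covered nearly whole at S1 and S2 at 26°C, hardly at S3, and had no peak at S4 or in any list at 20°C. The third, from 267074 to 270666, had 3.25, 3.07 and 2.77 at S2, S3 and S4. The 3 regions at 20°C were all on Chr0c01 and short, at 751405 to 752848 (1 peak of each mark at S1), 934521 to 935459 (H3K27me3 at S3 and S4) and 1138283 to 1139030 (H3ac at S1 and S2), with fold enrichments of 2.30 to 4.40.

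The question whether heat changed the weight of the contigs in the H3K27me3 lists was asked with their share of nuclear peaks. From S1 to S4 at 20°C this share was 1.15% (exact Clopper-Pearson 95% interval 0.864 to 1.496), 2.87% (2.16 to 3.74), 3.00% (2.20 to 3.99) and 4.01% (2.82 to 5.51). At 26°C it was 0.725% (0.521 to 0.983), 1.11% (0.850 to 1.44), 1.47% (1.19 to 1.79) and 2.16% (1.76 to 2.63). The intervals cover counting error only. The share was lower at 26°C at 4 of 4 stages, by log2 ratios of −0.66, −1.36, −1.03 and −0.89 (mean −0.99). With the signs of the 4 ratios flipped in every way, the exact two-sided permutation p was 0.125, the smallest that 4 stages allow.

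The H3K27me3 lists from heat-stressed plants also had more chromosome peaks, whereas the H3ac lists had fewer. Contig peaks of H3K27me3 at 26°C against 20°C had log2 ratios of −0.40, 0.15, 1.09 and 1.43 from S1 to S4, while chromosome peaks had 0.27, 1.55, 2.15 and 2.35. The length covered on the contigs was nearly equal, with log2 ratios of 0.21, −0.10, 0.07 and 0.22, whereas that on the chromosomes had 0.09, 0.89, 1.13 and 1.02. By covered length the contigs' share had log2 ratios of 0.11 (S1), −0.93 (S2), −0.98 (S3) and −0.73 (S4). For H3ac the contigs' share of peaks in S1 and S2 was 2.06% (1.66 to 2.52) and 6.17% (4.75 to 7.85) at 20°C, and 4.96% (3.58 to 6.67) and 5.86% (4.07 to 8.13) at 26°C. Its log2 ratio of 26°C to 20°C was 1.27 at S1 and −0.07 at S2, beside log2 ratios of −2.48 and −0.81 for H3ac chromosome peaks and −1.17 and −0.89 for H3ac contig peaks.

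Across stages the contigs' share of H3K27me3 peaks was higher at each later stage at both temperatures. Against S1 the log2 ratios were 1.32, 1.39 and 1.80 at S2, S3 and S4 at 20°C and 0.62, 1.02 and 1.58 at 26°C. At 20°C chromosome peaks were lower at every later stage (−1.37, −1.68 and −2.43) and contig peaks less so (−0.03, −0.26 and −0.58). At 26°C contig peaks were higher (0.53, 1.23 and 1.24) and chromosome peaks near S1 (−0.10, 0.20 and −0.35).

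Over the 8 H3K27me3 lists, no relation between contig peaks and chromosome peaks passed the test, except when only peaks with a fold enrichment of at least 3 were kept (r = 0.94, exact permutation p = 0.0035). Over all peaks Pearson's r was 0.56 (exact permutation p = 0.161) and Spearman's rho 0.48 (exact permutation p = 0.243). Without the 2 lists farthest from the median r was 0.29, and within a temperature it was 0.73 at 20°C and −0.06 at 26°C, each over 4 lists. For covered length r was −0.34 (exact permutation p = 0.410) and rho −0.62 (exact permutation p = 0.115), r without the 2 farthest lists was −0.31, and within a temperature it was −0.95 and −0.91. With Benjamini-Hochberg adjustment over these 4 relations the exact permutation p-values were 0.323 to 0.410.

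Contig peaks were then set against those of chromosomes 1 to 8 in the same list. H3K27me3 peaks were longer on the contigs in 8 of 8 lists. The median length was 862, 1400, 1302 and 4190.5 bp from S1 to S4 at 20°C against 424, 645, 615 and 1371 bp on the chromosomes. At 26°C it was 1735, 779, 631 and 1363 bp against 482, 454, 442 and 509 bp. The mean difference of log2 medians was 1.17 (SD 0.44, n = 8 lists), or 2.26-fold, with an exact sign-flip permutation p of 0.0078, the smallest that 8 lists allow, and 0.031 after Benjamini-Hochberg adjustment over 8 tests. For H3ac the contig peaks were longer in 4 of 4 lists, by 0.73 on the log2 scale (SD 0.52, n = 4 lists, exact p = 0.125, the smallest possible). Without the 5 contig regions in all 12 lists the difference was 0.80 for H3K27me3 (exact p = 0.0078) and 0.36 for H3ac (exact p = 0.25). The chromosome regions in all 12 lists were kept in this comparison.

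The height of the peaks did not separate contigs from chromosomes. The median fold enrichment of H3K27me3 contig peaks was 3.65, 2.58, 2.52 and 2.72 from S1 to S4 at 20°C and 3.70, 3.57, 2.82 and 2.70 at 26°C. On the chromosomes it was 3.58, 2.56, 2.46 and 2.52 at 20°C, against 3.91, 3.90, 2.86 and 2.74 at 26°C. The contigs were thus higher in the 4 lists at 20°C and lower in the 4 lists at 26°C. The mean difference was −0.01 on the log2 scale (SD 0.07, n = 8 lists, exact sign-flip permutation p = 0.789). For H3ac it was −0.01 as well (SD 0.0075, n = 4 lists, exact p = 0.25).

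Contig peaks met a peak of the other mark more often than chromosome peaks did. Of the H3K27me3 contig peaks, 23 of 54 (S1) and 25 of 53 (S2) at 20°C, and 9 of 41 (S1) and 15 of 59 (S2) at 26°C, overlapped an H3ac peak of the same stage and temperature. The mean share was 34.3% against 7.06% on the chromosomes, a difference of 27.2 percentage points (SD 8.02, 4 of 4 lists, exact sign-flip permutation p = 0.125, the smallest possible). Of the H3ac contig peaks, 27 of 92 and 34 of 61 at 20°C and 14 of 41 and 17 of 33 at 26°C overlapped H3K27me3. Their mean share was 42.7% against 21.0%, a difference of 21.7 points (SD 7.24, 4 of 4 lists, exact p = 0.125). Both comparisons rest on the same overlaps, seen from each mark in turn, so they are not separate results. Without the 5 contig regions in all 12 lists, picked for being shared, the difference was 13.1 points for H3K27me3 (exact p = 0.25). For H3ac it was 1.58 points (exact p = 0.75). The chromosome regions in all 12 lists, shared as well, were kept, so the removal was made on 1 side only. By bases, 47.2 to 70.8% of the contig length under H3K27me3 was also under H3ac, against 9.25 to 37.4% on the chromosomes, and 60.1 to 76.2% of the H3ac length was under H3K27me3, against 20.9 to 51.5%. Longer peaks meet others more often, and the part of length in these shares was not tested.

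H3K27me3 peaks on the contigs were also found again in more of the other lists. The median number of other H3K27me3 lists that a peak overlapped was higher on the contigs in 8 of 8 lists, by 1.31 lists on average (SD 0.46, exact sign-flip permutation p = 0.0078, adjusted 0.031). The mean number was 1.85 to 4.00 on the contigs and 0.729 to 2.86 on the chromosomes. For H3ac the median was higher in 2 of 4 lists and equal in the others (mean difference 0.50, exact p = 0.5), and the mean number was 0.913 to 1.88 against 0.168 to 1.22. Without the 5 contig regions in all 12 lists, and with the chromosome regions in all 12 lists kept, the median difference was 0.81 for H3K27me3 (exact p = 0.016). For H3ac it was 0 (exact p = 1). An overlap between 2 lists counts in both, so the values of the lists depend on one another. The exact p-values, which take them as independent, therefore cannot decide the question. Contig peaks were also longer, and the part of length in these numbers was not tested.

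**Figure D5:**
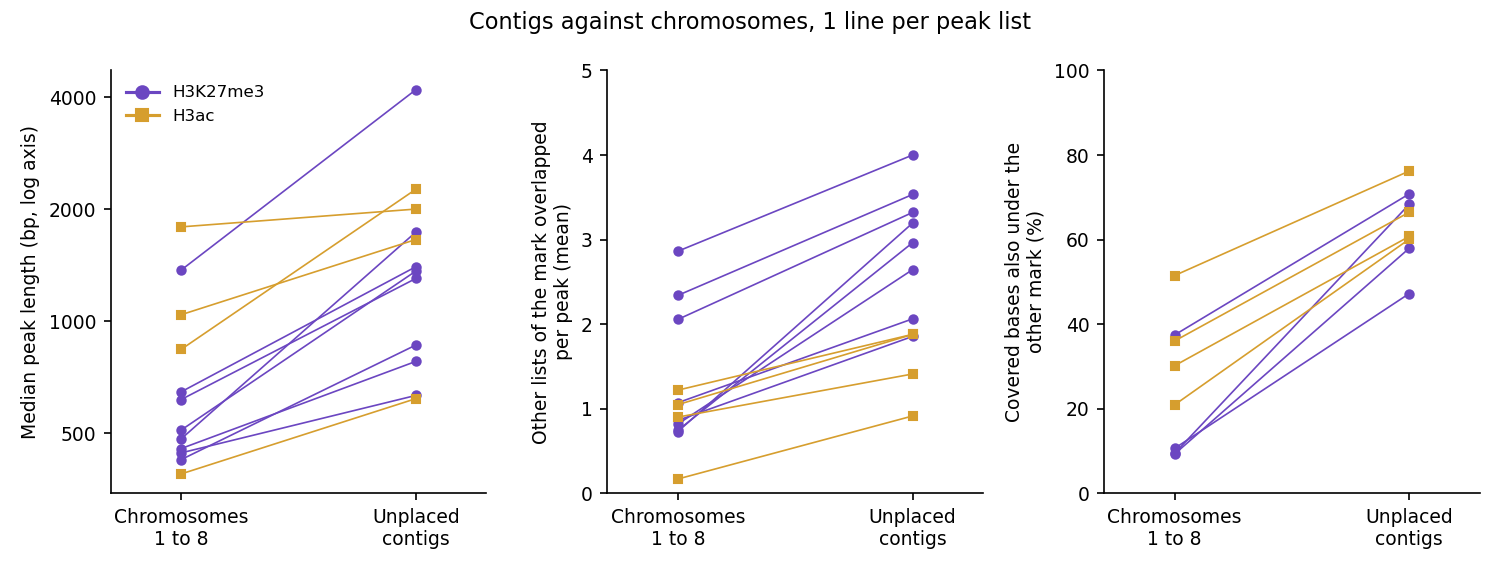
Chromosomes 1 to 8 against unplaced contigs, with 1 line per list (purple circles H3K27me3, yellow squares H3ac): median peak length in bp on a log axis (left), mean number of other lists of the same mark that a peak overlaps (middle), and percent of covered bases also under the other mark at S1 and S2 (right). All lines go up from the chromosomes to the contigs, and the right panel goes from 9.25 to 51.5% up to 47.2 to 76.2%.

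The strongest contig peaks stood near the top of the nuclear lists. By fold enrichment the best contig peak of H3K27me3 lay on Chr0c01 at S1 at 20°C, with 12.3 and rank 16 of 4702 nuclear peaks, and on Chr0c07 in the other 7 lists. From S2 to S4 at 20°C Chr0c07 ranked 2, 3 and 3, and from S1 to S4 at 26°C it ranked 44, 28, 2 and 4. For H3ac the best contig peak ranked 1 of all nuclear peaks at both stages at 20°C, on Chr0c01 at S1 (18.0) and on Chr0c07 at S2 (18.4), 2 at S1 at 26°C on Chr0c01 (17.3), and 20 of 563 at S2 at 26°C on Chr0c24 (6.16). Among the 20 nuclear peaks of a list with the highest fold enrichment, 0 to 7 were on contigs, with 0 in H3K27me3 at S1 and S2 at 26°C and 7 at S4 at 20°C. Among the 20 with the smallest p-value, 2 to 5 were on contigs. Contigs held 0.725 to 6.17% of all nuclear peaks of a list.

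The peak of Chr0c24 in H3ac at S2 at 26°C also had the smallest p-value of its list, with a −log10 p of 3307. At the start of Chr0c10, a region of 511 bp from position 73 to 583, named after its values were seen, had peaks in 5 lists. Its −log10 p was 495.6, 804.1, 1134 and 1110 in the H3K27me3 lists of S3 and S4, those of 20°C first, and 743.4 in H3ac at S1 at 20°C. Its fold enrichment there was 1.41, 1.58, 2.27, 1.93 and 3.31. By contrast, the median contig peak of a list had a −log10 p of 3.51 to 5.93.

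The RefSeq annotation of the same assembly has 151 genes that it places on no chromosome, of which 93 are protein-coding, 15 give long noncoding RNAs, 15 small nucleolar RNAs, 11 rRNAs and 6 tRNAs, 9 are pseudogenes and 2 are transcribed pseudogenes. Of the rRNA genes, 7 are 119 bp long, 3 are 156 bp long and 1 is 1808 bp long. The table does not say on which contig a gene lies, so no gene was assigned to a peak, and no gene is named here.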

How the data were processed

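H3K27me3 (8 lists) and H3ac (4 lists) were measured in embryos of *M. truncatula*, with 1 list per IP library and no pooling. The authors trimmed reads (Trim Galore), kept those with 1 place on the MtrunA17r5.0 assembly (STAR), marked duplicates with Picard and removed them with Samtools, and ran MACS2 per library, IP against INPUT, with a p-value cutoff of 0.01. Versions are not given in the sources used here. Reads with several places were dropped before peak calling, which bears on repeated sequence. The script supplied with the study sets the broad mode for both marks, although the H3ac lists have the narrow format. Each line of the deposited lists gives a fold enrichment over INPUT, which is a ratio. The deposited p-value and q-value of a peak are written as −log10. The deposited score and summit columns were not used in any result. The smallest −log10 p was 2.74 to 3.16 in the H3K27me3 lists and 2.01 to 2.07 in the H3ac lists, so weaker peaks could not be studied. The smallest −log10 q was 1.02 to 1.07 in the H3K27me3 lists and 0 to 0.195 in the H3ac lists. The H3ac lists thus ended close to the p-value cutoff of 0.01, and the H3K27me3 lists at smaller p-values. Numbers of peaks of the 2 marks therefore rest on unlike limits. Read depth, which the study gives per library, is not in the lists and was not used.

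Contig peaks, covered length, merged regions and overlaps of at least 1 bp were computed in Python (3.11.15) with pandas 2.3.3, NumPy 2.4.6 and SciPy 1.17.1, and figures with matplotlib 3.10.9. Interval steps were tested on simulated data and against bedtools 2.31.1. Lists were compared by exact sign-flip permutation, and the 2 H3ac pairs of temperatures as ratios. The exact p-values treat lists as independent although they are different stages and temperatures, not replicates. Contigs with a peak in at least 6 lists were named, as were the 6 regions in most lists, the 3 leading regions of 1 mark or 1 temperature, with ties broken by the highest lowest fold enrichment, and the strongest contig peak of each list. The members, lists and rules were chosen with earlier results of these data known. Genes of the contigs could not be joined to the peaks, so the planned count of genes was not run. Alternatives kept only peaks with −log10 p from 5, with q up to 0.05, or with fold enrichment from 3. Others were Chr0c01 left out, peaks within 1 kb merged, equal list sizes, organelle peaks in the denominator, overlaps of at least 200 bp or 0.5 of the peak, and each list left out. After seeing the data, the removal of Chr0c07 and of the 5 regions in all 12 lists, shares of bases, and means in place of medians were added.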

Additional observations from a re-analysis of the deposited data

Results flagged for a closer look

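The number of H3K27me3 peaks on the contigs went opposite ways with stage at the 2 temperatures. At 20°C the lists of S2, S3 and S4 held 53, 45 and 36 peaks, all below the 54 of S1, a mean difference of −9.33 peaks. At 26°C they held 59, 96 and 97, all above the 41 of S1, a mean difference of 43 peaks. The difference between the temperatures was not tested, since each stage and temperature has 1 library. The covered length did not go opposite ways, as it was higher than at S1 in all 3 later lists at each temperature. Among 12 groups of 4 lists examined for a list far from the others in contig peaks, share, covered length or median fold enrichment, none was found.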

How the results depend on the processing

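No paired analysis was possible because every library carries the same replicate number, so the groups compared share fewer than 2 numbers. Lists were instead matched by stage, or contigs and chromosomes compared within a list. The count of contig peaks depended on the threshold and on list size. For H3K27me3, 481 peaks became 189 at a −log10 p of at least 5, 217 at a fold enrichment of at least 3, 301 without Chr0c01 and 174 with equal list sizes. For H3ac, 227 became 93, 120 and 122 under the first, second and last of these and 136 at a q-value of at most 0.05. H3ac covered 1213 kb summed over its lists, 689.4 kb at a fold enrichment of at least 3 and 416.5 kb without the 5 regions in all 12 lists, and H3K27me3 covered 2978 kb and 1128 kb without them. The 260 regions became 92 and 157 at a −log10 p of at least 5 and a fold enrichment of at least 3, those of both marks 20 and 31 in place of 50, and those in all 12 lists 3 in place of 5 at that fold enrichment.

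The difference in fold enrichment between contigs and chromosomes changed sign, with no exact p under 0.05. For H3K27me3 it was 0.0699, 0.236 and 0.0283 at a −log10 p of at least 5, a fold enrichment of at least 3 and without Chr0c01, and from −0.0246 to 0.0087 with each list left out (0.00203 without S1 at 26°C and 0.0087 without that of S2 at 26°C). For H3ac it was 0.10 at a fold enrichment of at least 3 and 0.00207 without the 5 regions. Contig and chromosome peaks were related at a fold enrichment of at least 3 (r = 0.94, exact permutation p = 0.0035), the only one of these settings with a p below 0.05. The lower contig share at 26°C ranged from −1.10 to −0.86 with each stage left out. With each list left out, the length difference of H3K27me3 was 1.08 to 1.27, with the smallest exact p that 7 lists allow. The causes of these shifts were not tested. Of all values recomputed, 193 kept their direction and side of the threshold or moved by less than 1.5 times. A further 23 moved by more, 7 changed sign and 1 became stronger.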
